A study of Mus musculus with 16 samples.

Results

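CXC chemokines and the receptor Cxcr2 were followed through the dorsal skin RNA of 16 male C57BL/6N mice. The 8 members were Cxcl1, Cxcl2, Cxcl3, Cxcl5, Cxcl12, Cxcl14, Cxcl16 and Cxcr2, taken by gene symbol from the 23282 rows of each count table. They were chosen by symbol with earlier results of all 4 groups in view, so their levels and fold changes are given as a description with no p-values. After removal of rows with low counts 14854 rows were tested, and 7 of the 8 members were among them. Cxcl3 was left out because its counts were too low.

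All mice were wild type, arrived at 3 weeks of age and were given 1 week to adapt. Cont mice ate normal chow. LowAhR mice ate a diet low in ligands of the aryl hydrocarbon receptor (AhR), a transcription factor that senses small dietary and environmental molecules, for 12 weeks. Mice on this diet were also housed on a paper bedding free of such ligands, so diet and bedding cannot be told apart in comparisons with Cont. LowAhR+AD mice ate the same diet and, after its first 2 weeks, had 1% 2,4-dinitrochlorobenzene (DNCB), a hapten that sets off contact dermatitis, put on the dorsal skin 2 times a week for 10 weeks. LowAhR+AD+BJ mice had diet and DNCB and were also given Bojungikgi-tang (BJIKT), a water extract of a herbal mixture, by mouth at 1 g/kg each day. Each group had 4 mice and 1 library per mouse. DNCB was mixed in acetone and olive oil, and the paper describes no solvent treatment of Cont or LowAhR mice. DNCB and its solvent therefore cannot be told apart in comparisons with these groups. No group received DNCB on normal chow, so LowAhR+AD against Cont joins the effects of the diet and of DNCB, which cannot be told apart there.

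CXC chemokines are small secreted proteins that guide leukocytes. In the mouse, Cxcl1, Cxcl2, Cxcl3 and Cxcl5 act through Cxcr2, a receptor carried mainly by neutrophils, and keratinocytes and other skin cells make these ligands during inflammation. Cxcl12, which signals through Cxcr4 and is also taken up by Ackr3, and Cxcl14, made by epidermal keratinocytes, are present in resting tissue. Cxcl16 is a membrane-bound ligand of Cxcr6.

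The 4 Cxcr2 ligands lie within 1 cluster on chromosome 5 (GRCm38, GENCODE annotation), from the start of Cxcl5 at 90759360 to the end of Cxcl2 at 90905938, a span of 146579 bases. The cluster also holds Ppbp, Pf4 and Cxcl15. Cxcl12 lies at chr6:117168535-117181367, Cxcl14 at chr13:56288643-56296551, Cxcl16 at chr11:70453983-70459984 and Cxcr2 at chr1:74153989-74161246. RefSeq promoter windows of 300 bases (250 before and 50 after the start, GRCm38.p6) were given for 6 of the 8 members, all but Cxcl5 and Cxcl16. The 120 bases that end just before the first annotated start are shown for Cxcl1, Cxcl2 and Cxcl3, the ligands that share a sequence feature, with matches to the NF-kB consensus and to TATAAA in capitals:
Cxcl1 (chr5:90891121-90891240, plus strand): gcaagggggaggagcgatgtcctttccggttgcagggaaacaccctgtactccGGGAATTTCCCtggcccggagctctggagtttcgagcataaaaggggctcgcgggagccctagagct
Cxcl2 (chr5:90903751-90903870, plus strand): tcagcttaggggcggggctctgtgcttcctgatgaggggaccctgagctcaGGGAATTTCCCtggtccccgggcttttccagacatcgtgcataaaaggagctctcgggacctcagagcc
Cxcl3 (chr5:90785981-90786100, plus strand): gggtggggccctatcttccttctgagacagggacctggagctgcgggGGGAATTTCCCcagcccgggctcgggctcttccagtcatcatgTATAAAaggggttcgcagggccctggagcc

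Each of the 3 stretches held the same 11-base match to the NF-kB consensus, GGGAATTTCCC, which begins 71, 97 and 73 bases before the RefSeq start of Cxcl1, Cxcl2 and Cxcl3. NF-kB is a family of transcription factors activated by cytokines such as Il1b. With both strands searched, 8.46% of all 32851 windows held the consensus, 13.6% held TATAAA and 7.81% held the AP-1 motif TGANTCA. Among the 6 windows only that of Cxcl3 held TATAAA, apart from its NF-kB match, and none held TGANTCA. The windows of Cxcl12, Cxcl14 and Cxcr2 held none of the 3 motifs. A match describes the letters and was not tested as a binding site.

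Libraries held 7080508 to 13467477 counts, and the 8 libraries of the DNCB-treated groups were all deeper than the 8 others. Levels are CPM, a gene's count relative to the total count of its library, scaled by the effective library size. At these depths a count of 0 allowed up to 3 counts, or 0.229 to 0.406 CPM. LowAhR+AD replicate 1 stood apart. Of the genes for which the other libraries predicted 20 to 40 counts there, 38.2% had a count of 0, against at most 13.6% in any other library. Its macrophage marker Lyz2 was also at 0. For several results below, the call or the value without this library is also given, but not every call that changed is listed. In whole skin, fewer cells of a type and less RNA per cell cannot be told apart.

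Cxcl5, a neutrophil attractant of inflamed epithelium, had no read in any of the 8 libraries of Cont and LowAhR. In LowAhR+AD its level was 59.3, 36.2, 12.1 and 126 CPM in replicates 1 to 4. In LowAhR+AD+BJ it was 74.1, 103, 0.855 and 19.5 CPM. Each DNCB-treated library held Cxcl5 reads, so the groups with and without DNCB did not overlap, but within LowAhR+AD+BJ replicate 3 had only 11 counts. Lack of overlap was common: 18.8% of all rows did not overlap between LowAhR+AD and LowAhR. The share was 24.7% between LowAhR+AD and Cont and 17.1% between LowAhR+AD+BJ and LowAhR. Against the limit that a count of 0 allows per library, the mean of LowAhR+AD (58.4 ± 49.0 CPM, SD, n = 4) was at least 152-fold higher than LowAhR, and the mean of LowAhR+AD+BJ (49.4 ± 47.5 CPM) at least 129-fold higher. Without the highest library of each group, LowAhR+AD replicate 4 or LowAhR+AD+BJ replicate 2, these bounds were 93.3-fold and 81.9-fold.

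Cxcl2, an early neutrophil attractant, was at 1.35, 0, 0.260 and 0.596 CPM in LowAhR. It stood at 5.34, 7.54, 14.1 and 22.8 CPM in LowAhR+AD, all above every LowAhR library. The log2 fold change of Cxcl2 was 4.47 (SE 1.13), and 5.36 without LowAhR replicate 1. Cont libraries spread widely, at 5.77, 1.16, 0.247 and 2.39 CPM, so that Cont replicate 1 overlapped LowAhR+AD. LowAhR+AD+BJ held both the highest levels of Cxcl2 (61.1 and 39.0 CPM in replicates 1 and 2) and 1 within the range of LowAhR (0.622 CPM in replicate 3), with replicate 4 at 18.4 CPM.

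Cxcl1, the keratinocyte-derived neutrophil attractant also called KC, was less sharply divided. LowAhR libraries held 0.406, 1.79, 0.650 and 1.19 CPM of Cxcl1 and Cont libraries 4.23, 0.129, 0.863 and 0 CPM. In LowAhR+AD, replicates 2 and 4 (10.1 and 14.8 CPM) exceeded all 8 libraries without DNCB, whereas replicates 1 and 3 (1.22 and 2.10 CPM) did not. The log2 fold change of Cxcl1 in LowAhR+AD against LowAhR was 2.78 (SE 1.12) and 2.13 without LowAhR+AD replicate 4. It was not called by edgeR but was called by DESeq2. In LowAhR+AD+BJ Cxcl1 was at 43.0, 11.7, 3.19 and 6.65 CPM, above every LowAhR library, with a log2 fold change of 3.98 (SE 1.16) against LowAhR and of 2.81 without LowAhR+AD+BJ replicate 1.

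Cxcl3 had no read in the 8 libraries without DNCB. Its counts were 0, 2, 1 and 20 in LowAhR+AD and 59, 5, 0 and 9 in LowAhR+AD+BJ. In each of these 2 groups 1 library held most of its reads, LowAhR+AD replicate 4 at 1.60 CPM and LowAhR+AD+BJ replicate 1 at 5.38 CPM. The other libraries were at or under 0.907 CPM.

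Cxcr2, the receptor of these 4 ligands, was at 0.129 to 0.957 CPM in Cont and at 0.128 to 1.91 CPM in LowAhR. In LowAhR+AD its level was 0.229, 9.51, 6.52 and 26.0 CPM. Replicates 2, 3 and 4 were above all libraries without DNCB, and replicate 1, with 3 counts, lay among them. The log2 fold change of Cxcr2 against LowAhR was 3.52 (SE 1.00), 3.93 without LowAhR+AD replicate 1, 4.19 without LowAhR replicate 4 and 2.56, no longer called, without LowAhR+AD replicate 4. It was also not called without LowAhR replicate 1, 2 or 3, or in a fit of only the 8 libraries compared. In LowAhR+AD+BJ all 4 libraries (12.8, 9.16, 4.66 and 8.06 CPM) exceeded those of LowAhR, with a log2 fold change of 3.24 (SE 0.99) that was not called.

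**Figure D1:**
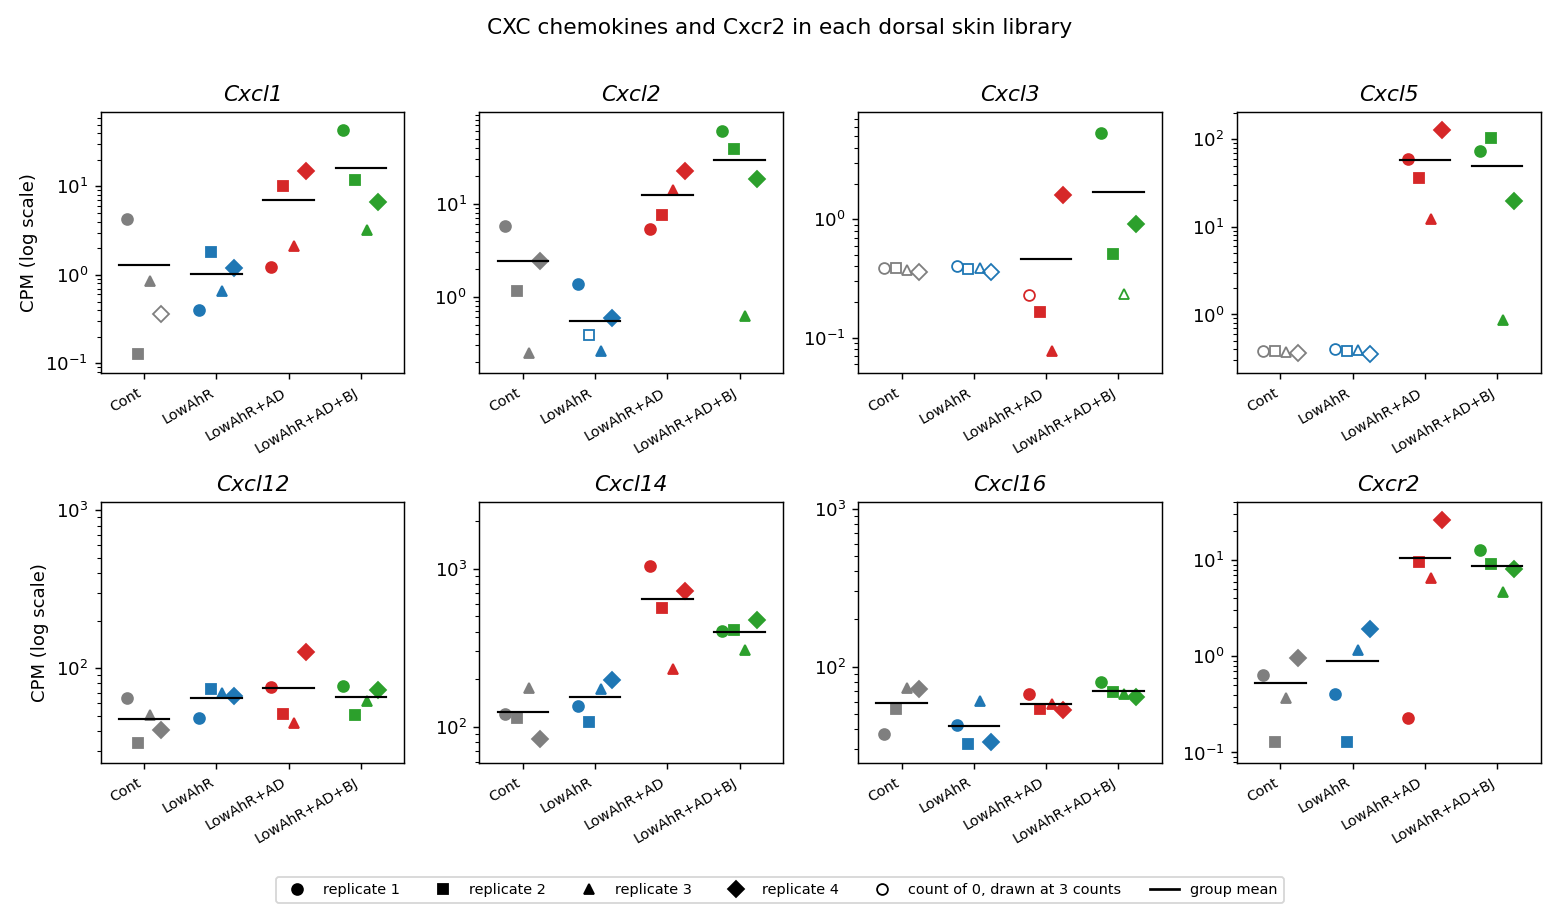
Level of each of the 8 genes (CPM, log scale) in each library by group, with 1 symbol per replicate and a line at the group mean. Open symbols are counts of 0, drawn at the value of 3 counts. Cxcl5 is at 0 in all 8 libraries without DNCB and at 0.855 to 126 CPM in the others, and Cxcr2 of LowAhR+AD replicate 1 (0.229 CPM) lies among the libraries without DNCB.

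Cxcl14, a chemokine made by resting epidermis, was higher in every DNCB-treated library than in every other. LowAhR libraries held 135, 107, 172 and 196 CPM of Cxcl14 and Cont libraries 83.9 to 177 CPM. LowAhR+AD libraries held 1047, 560, 230 and 718 CPM, a log2 fold change of 2.06 (SE 0.36) against LowAhR. The highest of them was LowAhR+AD replicate 1, and leaving it out gave 1.72. LowAhR+AD+BJ libraries held 401, 409, 306 and 470 CPM, closer together than in LowAhR+AD (SD 68.0 against 340 CPM) and with a log2 fold change of 1.37 (SE 0.35) against LowAhR. Cxcl14 was called higher in these 2 comparisons and in LowAhR+AD against Cont (2.37, SE 0.36).

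Cxcl12, a ligand that holds leukocytes and progenitors in tissue, was not called in any comparison. Its mean level was 47.5 ± 13.6 CPM in Cont, 64.3 ± 11.2 in LowAhR, 74.9 ± 37.6 in LowAhR+AD and 65.7 ± 11.8 in LowAhR+AD+BJ (SD, n = 4 each). Neighbours in this order overlapped, and the highest library, LowAhR+AD replicate 4 at 127 CPM, widened the spread of its group. Without it the log2 fold change of Cxcl12 in LowAhR+AD against LowAhR went from 0.22 (SE 0.29) to -0.16.

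Cxcl16 was not called either. Its mean level was 59.2 ± 16.9 CPM in Cont, 42.2 ± 13.0 in LowAhR, 57.9 ± 6.55 in LowAhR+AD and 69.9 ± 7.14 in LowAhR+AD+BJ. All 4 LowAhR+AD+BJ libraries (63.7 to 80.2 CPM) were above all 4 LowAhR libraries (32.2 to 60.3 CPM), with a log2 fold change of 0.73 (SE 0.24). The LowAhR mean of Cxcl16 was the lowest of the 4 groups, and its libraries overlapped those of Cont and of LowAhR+AD.

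LowAhR against Cont asks what the diet, with its bedding, did without dermatitis. No member was called. Each tested member overlapped between the 2 groups, where 11.3% of all rows did not. Of 14854 rows, 0 (0%) were called by edgeR's quasi-likelihood test, with 2031 at an unadjusted p under 0.05 and 491 called by DESeq2. Log2 fold changes were -2.10 (SE 1.11) for Cxcl2, -0.36 (SE 1.12) for Cxcl1, 0.77 (SE 1.01) for Cxcr2, -0.49 (SE 0.24) for Cxcl16, 0.44 (SE 0.30) for Cxcl12 and 0.31 (SE 0.35) for Cxcl14. The difference in Cxcl1 turned positive (1.58) without Cont replicate 1.

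LowAhR+AD against LowAhR asks what DNCB, with its solvent, did on the diet. Of the 7 tested members 4 were called higher (Cxcl2, Cxcl5, Cxcl14 and Cxcr2) and 0 lower, where 6.42% of all rows were called higher and 6.21% lower. The median log2 fold change of the 7 was 2.78, that of all rows 0.04. Cxcl1, Cxcl5 and Cxcr2 passed the filter on low counts only through the DNCB-treated libraries. These counts and medians therefore describe the members and are no test of them. Of the 7, 3 did not overlap (Cxcl2, Cxcl5 and Cxcl14), where 18.8% of all rows did not. Against Cont, 3 members were called higher (Cxcl5, Cxcl14 and Cxcr2) and 0 lower, where 12.3% of rows were called higher and 9.47% lower. In that comparison 2 members did not overlap (Cxcl5 and Cxcl14), where 24.7% of rows did not. There Cxcr2 was not called in a fit of only the 8 libraries compared, DESeq2 also called Cxcl2, and Cxcl1 was called without Cont replicate 1. These comparisons share the LowAhR+AD libraries, and the members were chosen with both known. The calls of members other than Cxcl14 rest on the count model: limma voom called Cxcl14 alone in each comparison of a DNCB-treated group with a group without DNCB.

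LowAhR+AD+BJ against LowAhR+AD asks what BJIKT did to inflamed skin. No member was called. Of all rows 0 (0%) were called by edgeR, with 1405 at an unadjusted p under 0.05 and 17 called by DESeq2. Log2 fold changes were 1.26 (SE 0.92) for Cxcl2, 1.19 (SE 1.02) for Cxcl1, 0.27 (SE 0.24) for Cxcl16, -0.19 (SE 0.29) for Cxcl12, -0.24 (SE 0.95) for Cxcl5, -0.29 (SE 0.88) for Cxcr2 and -0.69 (SE 0.35) for Cxcl14. All members overlapped between the groups, where 5.08% of rows did not. For Cxcl1, Cxcl2, Cxcl5 and Cxcr2 a difference of 2-fold, 1 on the log2 scale, lay within about 1 SE.

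Single libraries set the direction of 3 of these differences. Without LowAhR+AD replicate 4 the difference in Cxcl5 became 0.46, that in Cxcr2 0.67 and that in Cxcl12 0.19. The difference in Cxcr2 was also positive, at 0.87, in limma voom. The difference in Cxcl5 also became positive without LowAhR+AD+BJ replicate 3 (0.17) or replicate 4 (0.02). Cxcl14 stayed lower in LowAhR+AD+BJ whichever library was left out, between -0.97 and -0.35, the latter without LowAhR+AD replicate 1. Without LowAhR+AD+BJ replicate 1 the log2 fold changes of Cxcl1 and Cxcl2 shrank to 0.03 and 0.64.

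Against LowAhR, LowAhR+AD+BJ had 4 members called higher (Cxcl1, Cxcl2, Cxcl5 and Cxcl14) and 0 lower, where 3.64% of rows were called higher and 3.12% lower. Of the 7 tested members 5 did not overlap (Cxcl1, Cxcl5, Cxcl14, Cxcl16 and Cxcr2), where 17.1% of rows did not. Here too Cxcl1, Cxcl5 and Cxcr2 had passed the filter only through DNCB-treated libraries, so these counts are a description. Cxcl2 and Cxcl5 were called whichever library was left out, but Cxcl5 was not called in a fit of only the 8 libraries compared. Cxcl1 and Cxcl14 were not called without LowAhR+AD+BJ replicate 1, 2 or 4, or without LowAhR replicate 1, 2 or 3, and Cxcl1 was not called without LowAhR replicate 4. Cxcr2 was called by DESeq2, in the fit of only those 8 libraries, and without LowAhR replicate 4 or LowAhR+AD+BJ replicate 3, and Cxcl16 without LowAhR replicate 3.

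**Figure D2:**
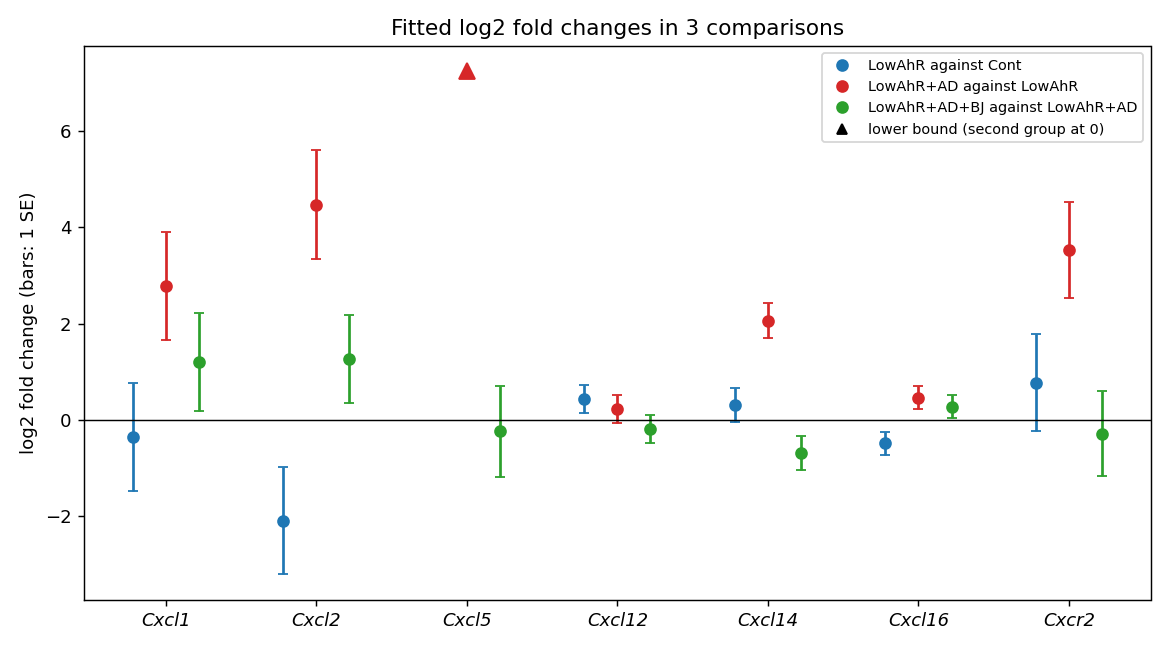
Fitted log2 fold change (points, bars of 1 SE) of the 7 tested genes in 3 comparisons. The triangle is the lower bound for Cxcl5, which had no read in LowAhR. DNCB against diet alone gave 2.06 to 4.47 for Cxcl1, Cxcl2, Cxcl14 and Cxcr2, and the differences after BJIKT lay between -0.69 and 1.26.

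The mix of Cxcr2 ligands differed from library to library. Reads of Cxcl1, Cxcl2, Cxcl3 and Cxcl5 together came to 7 to 78 counts in the libraries without DNCB, none of them Cxcl5. In LowAhR+AD Cxcl5 made up 90.0% (95% exact binomial interval 87.8 to 92.0), 67.0% (63.3 to 70.6), 42.7% (37.6 to 48.0) and 76.3% (74.4 to 78.1) of these reads in replicates 1 to 4. In LowAhR+AD+BJ the share was 40.4% (38.2 to 42.5), 66.9% (64.4 to 69.2), 18.3% (9.52 to 30.4) and 42.8% (38.2 to 47.5). Intervals cover counting error only. The shares of both groups overlapped, and the spread within each group was larger than the counting error. The summed level of the 4 ligands ran from 28.4 to 165 CPM in LowAhR+AD and from 4.66 to 183 CPM in LowAhR+AD+BJ.

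**Figure D3:**
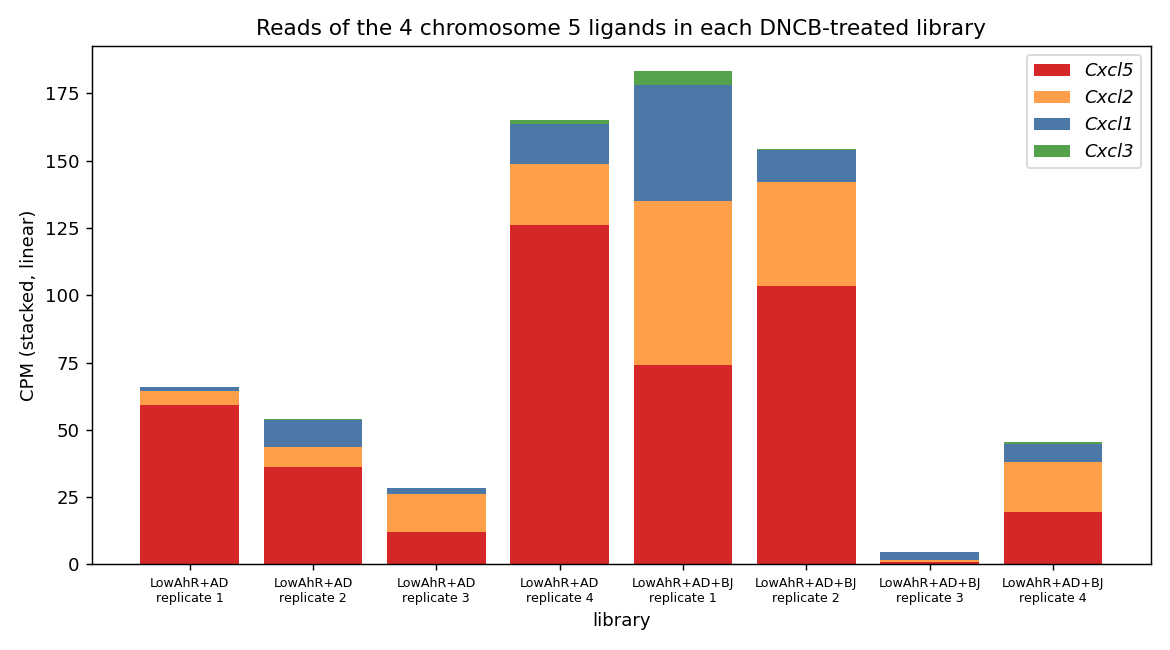
Stacked CPM (linear axis) of Cxcl5, Cxcl2, Cxcl1 and Cxcl3 in each of the 8 DNCB-treated libraries. LowAhR+AD+BJ replicate 3 reaches only 4.66 CPM, and Cxcl5 fills 90.0% of LowAhR+AD replicate 1.

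Within the 8 DNCB-treated libraries, deviations from the group mean (log2 CPM) were compared between members as a description. Pearson's r was 0.87 for Cxcl2 with Cxcl5, 0.76 for Cxcl1 with Cxcr2, 0.68 for Cxcl1 with Cxcl2 and 0.65 for Cxcl1 with Cxcl5 (n = 8 for each pair). It was 0.23 for Cxcl5 with Cxcr2 and -0.34 for Cxcl14 with Cxcr2, but 0.82 and 0.78 over the 7 libraries other than LowAhR+AD replicate 1. Without any other single library Cxcl14 with Cxcr2 stayed negative, down to -0.63 without LowAhR+AD replicate 4. The most negative pair was Cxcl16 with Cxcr2, at -0.60, and not every pair is given. Cxcl2 with Cxcl5 came to 0.41 without LowAhR+AD+BJ replicate 3. Ligand and receptor parted most in LowAhR+AD replicate 1, with 777 counts of Cxcl5 and 3 of Cxcr2. LowAhR+AD+BJ replicate 3, with 11 of Cxcl5 and 60 of Cxcr2, was the lowest of its group for both. The points of a pair share library and depth.

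Other CXC ligands were low or uneven. Of 8 on the list, 5 were tested and 0 were called in LowAhR+AD against LowAhR. Ppbp, a platelet chemokine that also acts on Cxcr2, was at 0.247 ± 0.297 CPM in LowAhR and 6.44 ± 6.47 CPM in LowAhR+AD (SD, n = 4, log2 fold change 4.61, SE 1.64, edgeR adjusted p = 0.0709), and was called (edgeR adjusted p = 0.0277) without LowAhR+AD replicate 1, where it had no read. Pf4, another platelet chemokine, had a mean of 62.7 ± 35.1 CPM in Cont, 176 ± 43.8 in LowAhR and 238 ± 196 in LowAhR+AD, and was called higher in LowAhR+AD than in Cont (1.92, SE 0.67, edgeR adjusted p = 0.0465). With single libraries left out, that call held only without LowAhR+AD replicate 1 or 3, and it was lost in a fit of only the 8 libraries compared (edgeR adjusted p = 0.118). Cxcl9 and Cxcl10, interferon-induced ligands of Cxcr3, differed by -0.25 (SE 0.63) and -0.13 (SE 0.71) between LowAhR+AD and LowAhR, and Cxcl13, which draws B cells, by -0.27 (SE 0.94). These 3 changed sign when single libraries were left out. Cxcl11, Cxcl15 and Cxcl17 were too low to test.

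Of 7 other receptors and scavengers 6 were tested, and Ackr3, which removes Cxcl12, was the only one called. It stood at 18.9, 26.0, 30.3 and 39.5 CPM in LowAhR and at 8.85, 17.1, 13.3 and 16.2 CPM in LowAhR+AD, with no overlap, as in 18.8% of all rows. Ackr3 fell by 1.05 on the log2 scale (SE 0.33, edgeR adjusted p = 0.0414). The adjusted p ran from 0.0171 to 0.0830 over other settings and from 0.0380 to 0.111 with single libraries left out, where the call held only without LowAhR replicate 1. All 4 LowAhR+AD+BJ libraries (17.4 to 25.1 CPM) were above all 4 LowAhR+AD libraries, a difference of 0.67 (SE 0.32) that was not called (edgeR adjusted p = 0.527). Ackr1, a scavenger on venules and red cells, differed by -1.10 (SE 0.50, edgeR adjusted p = 0.153) after DNCB and Cxcr6, the Cxcl16 receptor, by -1.20 (SE 0.89, 0.406). Cxcr3 (1.00, SE 1.45), Cxcr4 (0.61, SE 0.70) and Cxcr5 (0.88, SE 0.45) were not called, and Cxcr1 was too low to test.

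Among inducers of these chemokines, Il1b was called. Its level was 5.27, 6.65, 20.9 and 5.60 CPM in LowAhR and 27.2, 26.5, 40.4 and 82.7 CPM in LowAhR+AD (log2 fold change 2.20, SE 0.61, edgeR adjusted p = 0.0245). These groups did not overlap, as in 18.8% of all rows. Over other settings the adjusted p of Il1b ran from 0.00222 to 0.127, and from 0.0122 to 0.0824 with single libraries left out. The call was lost without LowAhR replicate 1, 2 or 4 and without LowAhR+AD replicate 4, and the log2 fold change was 2.92 without LowAhR replicate 3. In LowAhR+AD+BJ it was at 167, 124, 14.9 and 51.9 CPM, highest in replicate 1 and lowest in replicate 3, as were Cxcl1 and Cxcl2. Against LowAhR the log2 fold change of Il1b there was 3.22 (SE 0.63, edgeR adjusted p = 0.00672, 0.0794 in limma voom). The other 15 tested genes of the 21 listed were not called after DNCB on the diet. Against Cont, 2 of the 16 tested were called higher and 3 lower, with a median log2 fold change of -0.37 over the list. Il1b (2.27, SE 0.61, edgeR adjusted p = 0.0129) and the TNF receptor Tnfrsf1a (0.79, SE 0.22, 0.0155) were the higher ones. Nfkbia, an inhibitor that holds NF-kB in the cytoplasm, was called lower, at a mean of 288 CPM in LowAhR+AD and 575 CPM in Cont (SE of the log2 fold change 0.22, edgeR adjusted p = 0.00432), as were Nfkbiz, a nuclear cofactor of NF-kB (-0.92, SE 0.31, 0.0390), and Zfp36, which destabilises cytokine mRNA (-0.94, SE 0.33, 0.0482). In LowAhR, without DNCB, the means of Nfkbia, Nfkbiz and Zfp36 were already 327, 38.9 and 30.8 CPM. They were 288, 33.7 and 32.3 CPM in LowAhR+AD and 575, 63.9 and 62.1 CPM in Cont. The comparison with Cont joins diet and DNCB, so these falls cannot be assigned to DNCB. Of the 5 genes called against Cont, Nfkbia alone kept its call whichever library was left out. Il1b lost it without LowAhR+AD replicate 4, Tnfrsf1a without Cont replicate 4 or LowAhR+AD replicate 1, Nfkbiz without Cont replicate 2 or 3 or LowAhR+AD replicate 2, 3 or 4, and Zfp36 without any library but Cont replicate 1 and LowAhR+AD replicate 1. Il17a, Il17c and Il17f had no read in any library of Cont, LowAhR, LowAhR+AD or LowAhR+AD+BJ. Neither the list of enzymes that cut CXC ligands (5 of 6 tested) nor that of neutrophil growth and arrest genes (7 of 9 tested) held a called gene in LowAhR+AD against LowAhR, and after BJIKT 0 genes of these 5 lists were called.

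Neutrophil markers were read beside Cxcr2. Of 20 on the list 19 had a row and 15 were tested. In LowAhR+AD against LowAhR 3 were called higher, the collagenase Mmp8 (log2 fold change 4.06, SE 1.10, edgeR adjusted p = 0.0223), the lectin Clec4d (3.21, SE 0.94, 0.0311) and the formyl peptide receptor Fpr1. Fpr1 had no read in LowAhR, was on average at least 6.93-fold above the limit that 3 counts per library allow, and had no read in LowAhR+AD replicate 1 (edgeR adjusted p = 0.0363). Mmp8 had a log2 fold change of 5.59 without LowAhR replicate 3 and was no longer called without LowAhR replicate 1 or 2 or without LowAhR+AD replicate 4 (3.39), and Clec4d and Fpr1 without any 1 LowAhR library or without LowAhR+AD replicate 2 or 4. The decoy receptor Il1r2 was called lower (-2.29, SE 0.46, edgeR adjusted p = 0.00420). The summed level of all 19 was 177 to 322 CPM in LowAhR, 67.8 to 268 in LowAhR+AD and 159 to 295 in LowAhR+AD+BJ. Without Il1r2 and Hcar2, which made up most of the sum in the groups without DNCB and were left out after the data were seen, it was 24.7 to 42.8, 45.8 to 193 and 58.3 to 221 CPM. Both genes had lower means in LowAhR+AD than in LowAhR (Il1r2 36.3 against 177 CPM, Hcar2 21.8 against 40.2 CPM). The median sum of all 19 was 252 CPM in LowAhR and 174 in LowAhR+AD, and that of the shorter list 33.2 and 107. The direction of the sum thus depends on leaving out these genes. Without LowAhR+AD replicate 1, the lowest sums of LowAhR+AD were 159 CPM for all 19 and 104 CPM for the shorter list, and 5 of 16 tested markers were called higher. Mpo, a defining granule enzyme, was at 0 in 3 of 4 libraries in each of Cont, LowAhR and LowAhR+AD. In LowAhR+AD+BJ it was at 0 in 1 of 4 libraries and reached 21 counts. The granule proteins Ltf and Ngp were at 0 in all Cont, LowAhR and LowAhR+AD+BJ libraries, while LowAhR+AD replicate 3 had 13 counts of Ltf and 78 of Ngp and replicate 2 had 5 of Ngp. LowAhR+AD replicate 1, the library with 3 Cxcr2 counts, also had 0 counts of Fpr2 and Trem1.

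Other cell type markers also moved between LowAhR and LowAhR+AD. All 4 keratins of activated keratinocytes were called higher, with a summed level of 525 to 1734 CPM in LowAhR and 11004 to 32976 CPM in LowAhR+AD. Of 7 basal and suprabasal keratinocyte markers 2 were called higher. All 9 skeletal muscle markers were called lower (10938 to 26697 against 544 to 4486 CPM), as were 7 of 8 adipocyte markers (7382 to 12106 against 378 to 3843 CPM), 3 of 9 fibroblast markers (29234 to 55531 against 4022 to 23264 CPM) and 2 of 7 T cell markers. Without LowAhR+AD replicate 1 the lowest sums in LowAhR+AD were 2306 CPM for adipocyte and 10419 CPM for fibroblast markers, and 8 of 9 muscle markers were called lower. With all libraries no macrophage, endothelial or hair follicle marker was called there (without that one, the endothelial Cdh5 was called higher), and 12 of 12 hair follicle markers were higher in LowAhR+AD than in Cont. After BJIKT 0 genes of these lists were called. The part of these differences in the levels of the chemokines was not tested.

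**Figure D4:**
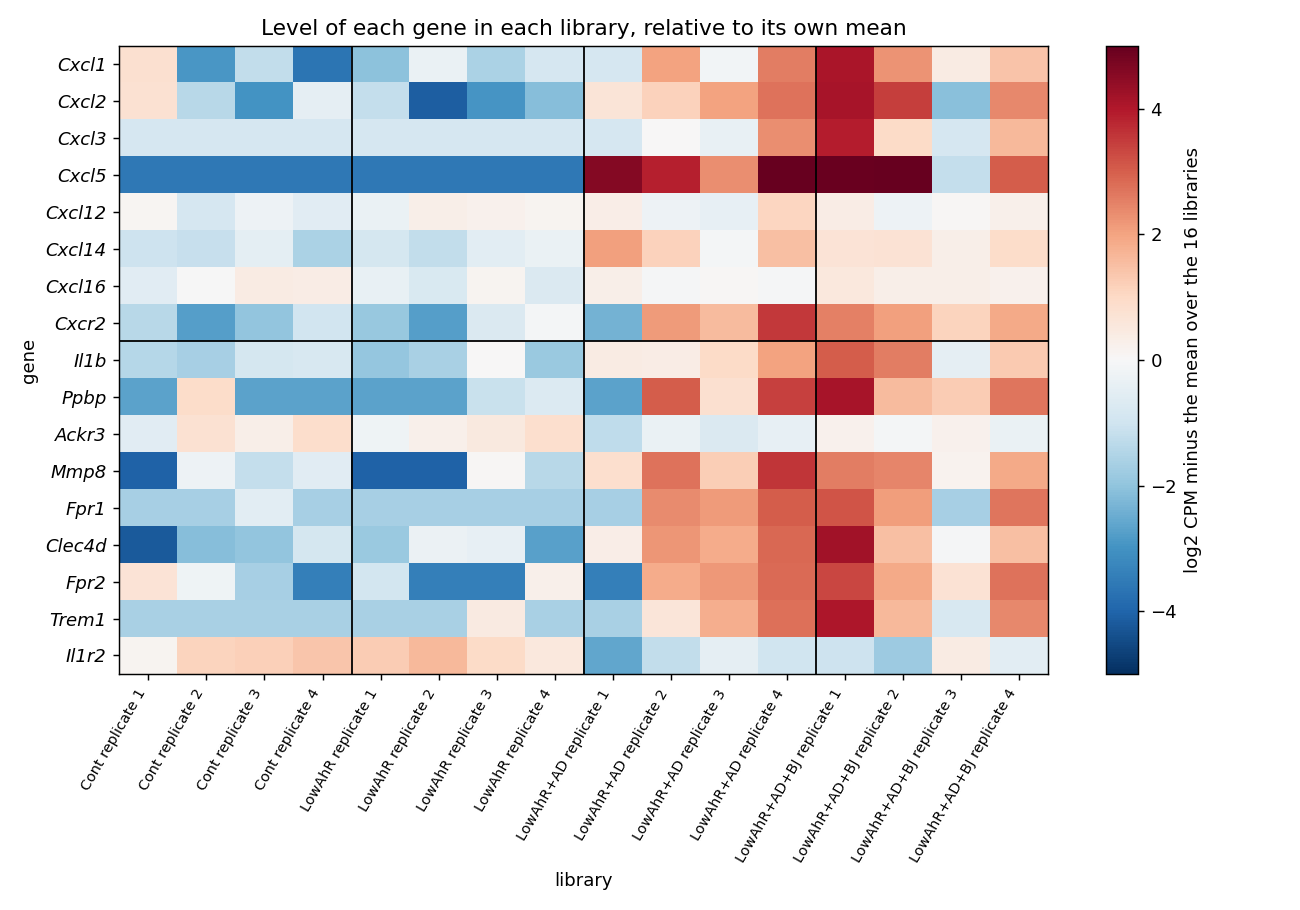
Level of each gene in each library as log2 CPM minus its own mean over the 16 libraries, with the 8 members above the line and 9 related genes below it. In LowAhR+AD replicate 1 Cxcl5 (59.3 CPM) and Cxcl14 (1047 CPM) are high while Cxcr2 (0.229 CPM) is low, and in LowAhR+AD+BJ replicate 1 Cxcl1, Cxcl2, Cxcl3 and Il1b are at their highest.

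Genes with the most similar pattern to each tested member were found by Pearson's r of log2 CPM over the 16 libraries among 10558 rows with a mean of at least 10 CPM in 1 group. For Cxcl5 they were Hsp90aa1 (0.97), Il24 (0.97) and Degs2 (0.96), and for Cxcl14 Tagln2 (0.97), Actn1 (0.97) and Sdc1 (0.96). Cxcr2 was closest to Klk13 (0.94), Api5 (0.93) and Spink6 (0.93). Cxcl1 was closest to Odc1 (0.93), Pdss1 (0.92) and Ccl7 (0.91), and Cxcl2 to Pbdc1 (0.89), Ddx18 (0.88) and Cct6a (0.87). Likeness was lower for Cxcl12 (Trmt112 at 0.86, Abhd17a at 0.83, Esrra at 0.82) and Cxcl16 (Rpp40 at 0.79, Gabpa at 0.78, Acap3 at 0.77). Spearman's rho was lower for some pairs, at 0.46 for Cxcl16 with Acap3, 0.60 for Cxcl16 with Rpp40 and 0.86 for Cxcl5 with Hsp90aa1. For other pairs it was slightly higher, such as 0.98 for Cxcl14 with Tagln2. These values are descriptions, since the libraries of all genes share depth and group and each gene was picked as a highest value among 10558 rows.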

How the data were processed

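RNA of mouse dorsal skin was isolated with Trizol and made into 3' end QuantSeq libraries. For each library the authors deposited a table of raw read counts by gene symbol. The submitters' processing notes name mm10, Bowtie2 and bedtools, without versions. The counter's treatment of strand and of reads with several matches was not given in the sources used here. Groups and replicates came from the sample labels. Counts of replicates differed beyond sampling noise (chi-square per degree of freedom 16.5 to 295 over 24 pairs).

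In R 4.3.3, rows were kept by filterByExpr (minimum count 10, minimum total 15) and fitted in edgeR 4.0.16 by quasi-likelihood over all 16 libraries with TMM factors. The calling threshold was a Benjamini-Hochberg adjusted p of 0.05. Log2 CPM used a prior count of 2. DESeq2 1.42.0, limma 3.58.1, other scalings, filters, a replicate block and leaving out libraries were alternatives. Fits were tested on simulated data. Members and gene lists were chosen with earlier results of these data known. The text names all members, all tested CXC ligands and receptors, up to 3 called genes per direction of each other pathway or neutrophil list, and the 3 genes most like each member. Il36a, Il36b, Il36g and Acod1 were matched to rows under older symbols.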

Additional observations from a re-analysis of the deposited data

Results flagged for a closer look

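Each member's CPM was examined for a library far from the other 3 of its group by Dixon's ratio in 28 groups of 4, where chance marks about 1 in 20 groups. Both results that passed the 95% critical value concern Cxcl3. In LowAhR+AD, replicate 4 (1.60 CPM) lay far above the others, and in LowAhR+AD+BJ replicate 1 (5.38 CPM) did. These libraries held 20 and 59 reads of Cxcl3.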

How the results depend on the processing

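Correlations between members, bounds of Cxcl5 and marker lists without single libraries were added after the data were seen. Over 588 refitted log2 fold changes of members, 583 moved by less than the spread between replicates, and no called member changed sign. Leaving out a single library can hardly move a difference by more than that spread. The spread was also wide for several members, so this count does not show that the values were stable. Counts of calls depended more on the fit. DESeq2 called 491 genes in LowAhR against Cont, 17 in LowAhR+AD+BJ against LowAhR+AD and 1676 in LowAhR+AD+BJ against LowAhR. Limma voom called 1 member, Cxcl14, in each comparison of a DNCB-treated group with a group without DNCB, and 1 of the other CXC and pathway genes in LowAhR+AD against LowAhR instead of 2. With at least 10 counts required in every library, 1 member was called in each of those 3 comparisons, since few members remain, and 35 genes in LowAhR against Cont. A fit of only the 8 libraries compared called 250 genes in LowAhR against Cont, 765 instead of 1876 in LowAhR+AD against LowAhR, and 1 of the other CXC and pathway genes. That last count was also 1 with no filter. Pf4 in LowAhR+AD against LowAhR was -0.25 in limma voom. The cause of these changes was not tested.

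With single libraries left out, genes called were 0 to 159 (without LowAhR replicate 2) in LowAhR against Cont, 1128 to 2015 in LowAhR+AD against LowAhR, 0 to 1 in LowAhR+AD+BJ against LowAhR+AD and 414 to 1469 in LowAhR+AD+BJ against LowAhR. In that last comparison the counts were 606, 519 and 556 without LowAhR replicates 1, 2 and 3, and 602, 414 and 453 without LowAhR+AD+BJ replicates 1, 2 and 4. In LowAhR+AD against LowAhR they were 1159, 1128 and 1244 without LowAhR replicates 1, 2 and 3. Members called in LowAhR+AD+BJ against LowAhR were 2 to 5, and other CXC and pathway genes called after DNCB 0 to 4. Log2 fold changes after DNCB ran from -0.14 to 0.82 for Pf4, -1.03 to 0.24 for Cxcl9, -1.25 to 0.25 for Cxcl10 and -0.83 to 0.19 for Cxcl13.

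Replicate numbers gave no clear sign of pairing. Deviations from group means correlated at -0.05 to 0.17 (median -0.007) between same-numbered libraries and at -0.15 to 0.14 (median -0.009) between others. Of 16 libraries 7 matched best with their own number, more than unrelated numbers would give on average. Pairing was not tested. With a replicate block, 1 of the other CXC and pathway genes was called in LowAhR+AD against LowAhR, and the 4 members called stayed called. In LowAhR+AD+BJ against LowAhR the block ended the call of Cxcl1 and added Cxcr2, and in LowAhR+AD against Cont it added Cxcl2. In LowAhR+AD against LowAhR the block ended the edgeR calls of Fpr1 (adjusted p = 0.0818), Il1b (0.0505) and Clec4d (0.0680). In LowAhR+AD against Cont it ended the edgeR call of Pf4 (adjusted p = 0.0778). Depth limits Cxcl3 and, without DNCB, Cxcl1, Cxcl2 and Cxcr2 most, where single reads set the level.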
